A study of Mus musculus with 6 samples.

Results

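Clustered RBPJ peaks were examined in F9 cells, a murine embryonal carcinoma line derived from a testicular teratoma. The members were chosen from the list of RBPJ peaks in asynchronous cells by position alone: a peak belonged to a cluster when its center lay within 3 kb of the center of another peak of the same list, and neighbors within 3 kb were chained. The rule selected 490 of 5206 asynchronous peaks (9.41%), which fell into 237 clusters. The other 4716 peaks are called isolated. Anti-RBPJ chromatin immunoprecipitation with sequencing (ChIP-seq) had been carried out with a custom-made antibody on unmodified cells of 2 populations. One was asynchronous and held 95% interphase and 5% mitotic cells, and the other was arrested in mitosis with nocodazole and collected by washing mitotic cells off the dish. The study comprised 6 libraries, with 2 immunoprecipitations and 1 input for each population, and the values here come from 1 peak list per population, each from the first immunoprecipitation. There was therefore no replicate, no test was made between populations or between groups of peaks, and all intervals are 95% intervals that cover counting error only. They treat peaks as separate observations although peaks of a cluster lie side by side.

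RBPJ is the DNA-binding protein through which Notch receptors act on genes. Without a Notch signal it can recruit co-repressors, and with one it assembles a complex of the Notch intracellular domain and Mastermind that activates targets such as Hes1. CTCF is a zinc-finger protein that binds a longer motif and helps to anchor chromatin loops. A peak is an interval in which immunoprecipitated reads exceeded the input, and neighboring peaks can mark separate binding sites, a wide bound region divided by the peak caller, or repeated sequence.

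The sequences of the following members show what a cluster can hold. The first set is the cluster at Hes1, with an exact RBPJ motif (TTCCCACA or TTCCCACG, either strand) in 2 of its 4 members. Capitals mark RBPJ motifs and the shorter core TTCCCA, which on the + strand can also read TGGGAA. The third member holds the core a second time beside the full motif.
Hes1 member 1 (chr16:30060560-30060732, mm9, + strand): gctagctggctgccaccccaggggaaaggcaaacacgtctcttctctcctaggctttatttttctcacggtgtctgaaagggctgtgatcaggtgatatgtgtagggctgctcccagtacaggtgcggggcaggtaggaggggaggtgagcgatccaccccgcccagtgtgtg
Hes1 member 2 (chr16:30063194-30063366, mm9, + strand): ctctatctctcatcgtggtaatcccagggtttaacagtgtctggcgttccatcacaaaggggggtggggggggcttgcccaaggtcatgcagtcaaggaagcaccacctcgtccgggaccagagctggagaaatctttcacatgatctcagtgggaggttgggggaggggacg
Hes1 member 3 (chr16:30065337-30065509, mm9, + strand): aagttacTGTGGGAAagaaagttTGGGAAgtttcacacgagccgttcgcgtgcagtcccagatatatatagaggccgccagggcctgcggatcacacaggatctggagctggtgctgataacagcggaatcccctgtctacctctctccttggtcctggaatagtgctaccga
Hes1 member 4 (chr16:30066387-30066559, mm9, + strand): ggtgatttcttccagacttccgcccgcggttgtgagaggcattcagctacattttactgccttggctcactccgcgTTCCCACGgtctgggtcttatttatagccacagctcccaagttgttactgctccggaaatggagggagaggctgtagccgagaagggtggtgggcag

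The next set gives the only other clusters in which 2 members held the exact RBPJ motif. They lie at Has3, which encodes a hyaluronan synthase, and at Col23a1, which encodes a transmembrane collagen. Capitals again mark the RBPJ motif and its core. Both Has3 members held the full motif on opposite strands and a second core.
Has3 member 1 (chr8:109395748-109395920, mm9, + strand): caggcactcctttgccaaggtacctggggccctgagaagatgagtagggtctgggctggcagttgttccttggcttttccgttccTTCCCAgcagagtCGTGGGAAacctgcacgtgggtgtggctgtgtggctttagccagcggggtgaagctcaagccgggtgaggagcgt
Has3 member 2 (chr8:109396443-109396615, mm9, + strand): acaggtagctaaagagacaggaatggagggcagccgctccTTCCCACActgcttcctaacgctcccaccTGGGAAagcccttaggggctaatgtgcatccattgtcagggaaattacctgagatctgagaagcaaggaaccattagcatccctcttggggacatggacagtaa
Col23a1 member 1 (chr11:51103051-51103223, mm9, + strand): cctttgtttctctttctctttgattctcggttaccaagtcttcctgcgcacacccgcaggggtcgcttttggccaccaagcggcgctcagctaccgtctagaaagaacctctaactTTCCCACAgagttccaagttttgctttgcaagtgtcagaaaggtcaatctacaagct
Col23a1 member 2 (chr11:51104145-51104317, mm9, + strand): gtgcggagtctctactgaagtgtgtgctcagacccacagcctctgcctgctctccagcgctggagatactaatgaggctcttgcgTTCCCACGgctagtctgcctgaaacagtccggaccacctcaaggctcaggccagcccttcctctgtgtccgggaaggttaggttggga

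A CTCF motif, searched as the core of the published CTCF consensus over 12 bases with at most 1 mismatch, occurred in 2 or more members of 6 clusters. The pairs shown lie in an intron of Abr and in an intergenic region 26794 bp upstream of P4ha1, which encodes a subunit of collagen prolyl hydroxylase. Capitals mark CTCF matches and RBPJ motifs or cores. The first Abr member held both kinds of motif.
Abr member 1 (chr11:76268109-76268281, mm9, + strand): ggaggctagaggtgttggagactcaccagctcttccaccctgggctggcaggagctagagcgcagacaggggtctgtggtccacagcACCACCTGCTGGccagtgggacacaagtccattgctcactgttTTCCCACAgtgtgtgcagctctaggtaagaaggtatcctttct
Abr member 2 (chr11:76269915-76270087, mm9, + strand): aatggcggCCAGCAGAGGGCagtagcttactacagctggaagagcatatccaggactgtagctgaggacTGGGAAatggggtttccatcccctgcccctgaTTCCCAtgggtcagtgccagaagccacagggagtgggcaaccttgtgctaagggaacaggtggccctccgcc
P4ha1 member 1 (chr10:58758387-58758559, mm9, + strand): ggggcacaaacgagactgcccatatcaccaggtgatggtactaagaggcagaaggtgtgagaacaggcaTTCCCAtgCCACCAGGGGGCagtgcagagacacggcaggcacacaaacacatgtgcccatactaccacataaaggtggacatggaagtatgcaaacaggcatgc
P4ha1 member 2 (chr10:58759164-58759336, mm9, + strand): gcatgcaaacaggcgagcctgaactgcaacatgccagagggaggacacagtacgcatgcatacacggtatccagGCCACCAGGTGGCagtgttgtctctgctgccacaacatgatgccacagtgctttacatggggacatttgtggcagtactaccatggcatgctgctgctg

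The last set comes from an intron of Tcte2, a gene of the mouse t-complex expressed in testis, and shows a cluster laid over repeated sequence. Capitals mark stretches of 20 bases or more that another member of the cluster also holds. Every base of the first member is marked.
Tcte2 member 1 (chr17:13743565-13743737, mm9, + strand): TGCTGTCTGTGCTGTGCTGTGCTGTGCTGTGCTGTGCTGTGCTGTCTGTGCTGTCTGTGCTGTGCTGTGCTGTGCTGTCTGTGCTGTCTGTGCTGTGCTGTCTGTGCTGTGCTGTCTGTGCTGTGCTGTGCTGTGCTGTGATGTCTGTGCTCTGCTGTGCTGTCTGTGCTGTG
Tcte2 member 3 (chr17:13744997-13745169, mm9, + strand): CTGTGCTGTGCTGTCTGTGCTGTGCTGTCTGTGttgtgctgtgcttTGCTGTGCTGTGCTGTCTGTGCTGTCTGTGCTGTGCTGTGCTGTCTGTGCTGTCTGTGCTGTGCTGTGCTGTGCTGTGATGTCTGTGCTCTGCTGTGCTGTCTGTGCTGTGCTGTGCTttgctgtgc

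The members lay far closer together than the list as a whole, as the rule required. Of the 237 clusters, 224 had 2 peaks, 10 had 3 and 3 had 4. The 253 distances between neighbors within clusters ran from 321 to 2967 bp, with a median of 938 bp and quartiles of 642 and 1783 bp, against a median of 85639 bp between neighbors over the list. These distances were not spread evenly below 3 kb: 132 were at most 1 kb, 74 lay between 1 and 2 kb, and 47 between 2 and 3 kb. The bin from 0.5 to 1 kb alone held 104 distances. From 3 to 10 kb each bin of the same width held 19 to 32, close to the 22 and 25 in the last bins inside the rule. HOMER, the peak caller, keeps a minimum distance between peaks and can filter a peak against its local surroundings. The part of these settings in the shape of the distribution was not tested.

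**Figure D1:**
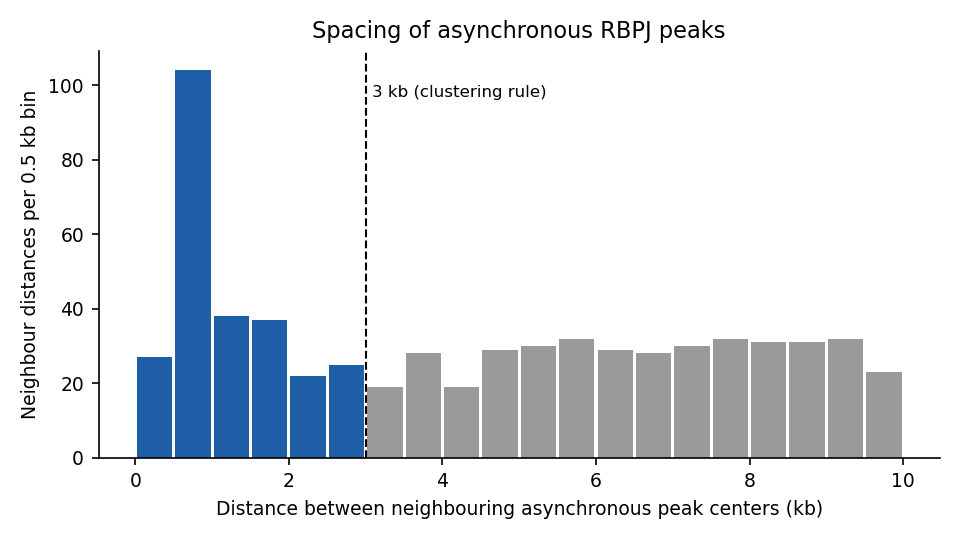
Number of neighboring pairs of asynchronous RBPJ peaks (y axis) by the distance between their centers in kb (x axis, bins of 0.5 kb). Blue bars are distances within the 3 kb rule and grey bars those beyond it; the tallest bin, 0.5 to 1 kb, holds 104 distances, and the bins beyond 3 kb hold 19 to 32.

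Just inside the limit lay a pair 2967 bp apart near Pou4f2 with peak scores of 17.7 and 12.2, and a pair 2954 bp apart near Dctd with 10.6 and 12.2. Just outside it lay a pair 3051 bp apart near Gsg1 with 11.4 and 10.1, and a pair 3078 bp apart near Ltbp4 with 21.5 and 13.5. The score is the authors' own value for each peak and is compared here only within a list. Over all clustered peaks it ran from 10.1 to 39.3 with a median of 12.0, and over isolated peaks from 10.1 to 58.3 with a median of 11.8. The 2 members of a pair differed by a median of 1.70 in score, and their scores had a Spearman correlation of 0.25 over 224 pairs, which share a neighborhood and a library.

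Clustered peaks were found on all 20 chromosomes with peaks, but unevenly. Chromosome 8 held 76 members in 36 clusters, which was 15.5% of the members beside 9.37% of the isolated peaks. At the other end, 4 of the 145 peaks on chromosome 14 were clustered (2.76%). Chromosome 8 also had the most peaks per Mb of all chromosomes, 3.93, against 1.16 on chromosome 14.

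Hes1, the classical target gene of Notch signaling and itself a transcriptional repressor, had one of the 3 clusters of 4 peaks. From left to right the scores were 16.5, 16.5, 26.6 and 15.2, and the centers were 2634, 2143 and 1050 bp apart. The first and second members lay 3824 and 1190 bp upstream of the closest transcript start. The third, which ranked 66th in the list, lay 3 bp upstream of a start, and the fourth 49 bp downstream of another. The score of the third member therefore stood above the other 3, which lay close to each other, although the fourth also lay at a start. The motif TTCCCACA of the third member was 75.5 bp from the peak center, near its edge, whereas TTCCCACG of the fourth was 6.5 bp from the center. Mitotic peaks with scores of 10.9 and 13.1 overlapped the second and the third members, with centers 110 and 23 bp to their left, and none overlapped the first or the fourth. One of the mitotic peaks thus lay over a member with a motif and the other over a member with none.

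The cluster in Tcte2 had the highest summed score, with 20.3, 22.0, 31.7 and 18.6 in its 4 members. Mitotic peaks with scores of 28.4 and 34.2 overlapped the first and the third members, 33 bp and 1 bp from their centers, and these ranked 17th and 13th in the mitotic list. None of the 4 members held an RBPJ motif, its core or a CTCF motif. A peak of 173 bp can hold 168 different words of 6 bases, and the Tcte2 members held 22, 29, 34 and 40, against a median of 161 in clustered and in isolated peaks. Such repetitive peaks were few but more common among members: 11 of 490 clustered peaks (2.24%, 1.13 to 3.98%) held fewer than 100 different words, beside 23 of 4716 isolated peaks (0.488%, 0.309 to 0.731%), a difference of 1.76 percentage points (0.741 to 3.49). The 11 lay in only 6 clusters, with all 4 Tcte2 members among them, and the intervals do not allow for this. Of these 11 members 6 overlapped a mitotic peak, as did 5 of the 23 isolated ones. Members shared a stretch of 20 bases with each other in 3 clusters, those at Tcte2, near Tmem125 and in an intron of Smo, which encodes the Hedgehog signal transducer. The Smo pair, with scores of 11.4 and 11.4, was the only cluster in which all members overlapped a mitotic peak. The authors aligned only reads with a unique best position, so repeats enter these lists only where copies differ, and the part of alignment in these peaks was not tested.

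The third cluster of 4 lay in introns of the long noncoding RNA genes Gm16889 and Gm17317 on chromosome 4, with scores of 10.6, 11.8, 11.0 and 15.6, and a mitotic peak of score 13.8 lay over its last member. Among clusters of 3, the one at Cenpt and Thap11 had the highest scores, 37.1, 16.0 and 16.5. Its first member lay 47 bp upstream of the start of Cenpt, which encodes a kinetochore protein, and its second 262 bp upstream of the start of Thap11, a transcription factor needed in embryonic stem cells. None of its members overlapped a mitotic peak. At the Mir290, Mir291a, Mir291b and Mir292 genes, which encode microRNAs of pluripotent cells, the scores were 15.2, 16.0 and 13.5, again without a mitotic peak. An intergenic cluster 11435 bp from the start of Abt1 had 12.2, 15.6 and 16.0, and mitotic peaks of 11.6 and 16.7 lay over its second and the third member. At Btbd9 the scores were 13.1, 15.6 and 11.4, and a mitotic peak of 16.0 lay over the middle and highest one, 186 bp upstream of the start. In introns of Ddx54, which encodes an RNA helicase, they were 11.8, 16.0 and 12.2, and the middle one held an RBPJ motif, a CTCF motif and a mitotic peak of 13.8. A cluster in introns of Ankrd10 had 11.8, 11.8 and 16.5, and one near Pou4f2 had 17.7, 12.2 and 11.4, both with no mitotic peak.

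Several pairs with high scores held no called mitotic peak. The highest score of any member, 39.3, stood in a pair 619 bp apart at Kdm5a and Ccdc77, whose other member scored 15.6. Kdm5a encodes a histone demethylase that acts as a co-repressor with RBPJ. At Esrrb, an orphan nuclear receptor of the pluripotency network, the members scored 30.0 and 26.2. They lay 2656 bp upstream and 66 bp downstream of an annotated transcript start inside the gene. At Has3 the members scored 19.8 and 21.1 and lay 695 bp apart, 1692 and 2387 bp downstream of the start. None of these 3 clusters held a mitotic peak, and the Has3 members each held an exact RBPJ motif. The Col23a1 members, with 10.6 and 10.6, likewise held motifs and no mitotic peak. Conversely, at Lctl members of 11.8 and 11.8 had 2 mitotic peaks of 10.2 and 10.9 between or over them, one of which overlapped neither member and lay 688 bp from the closest center.

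**Figure D2:**
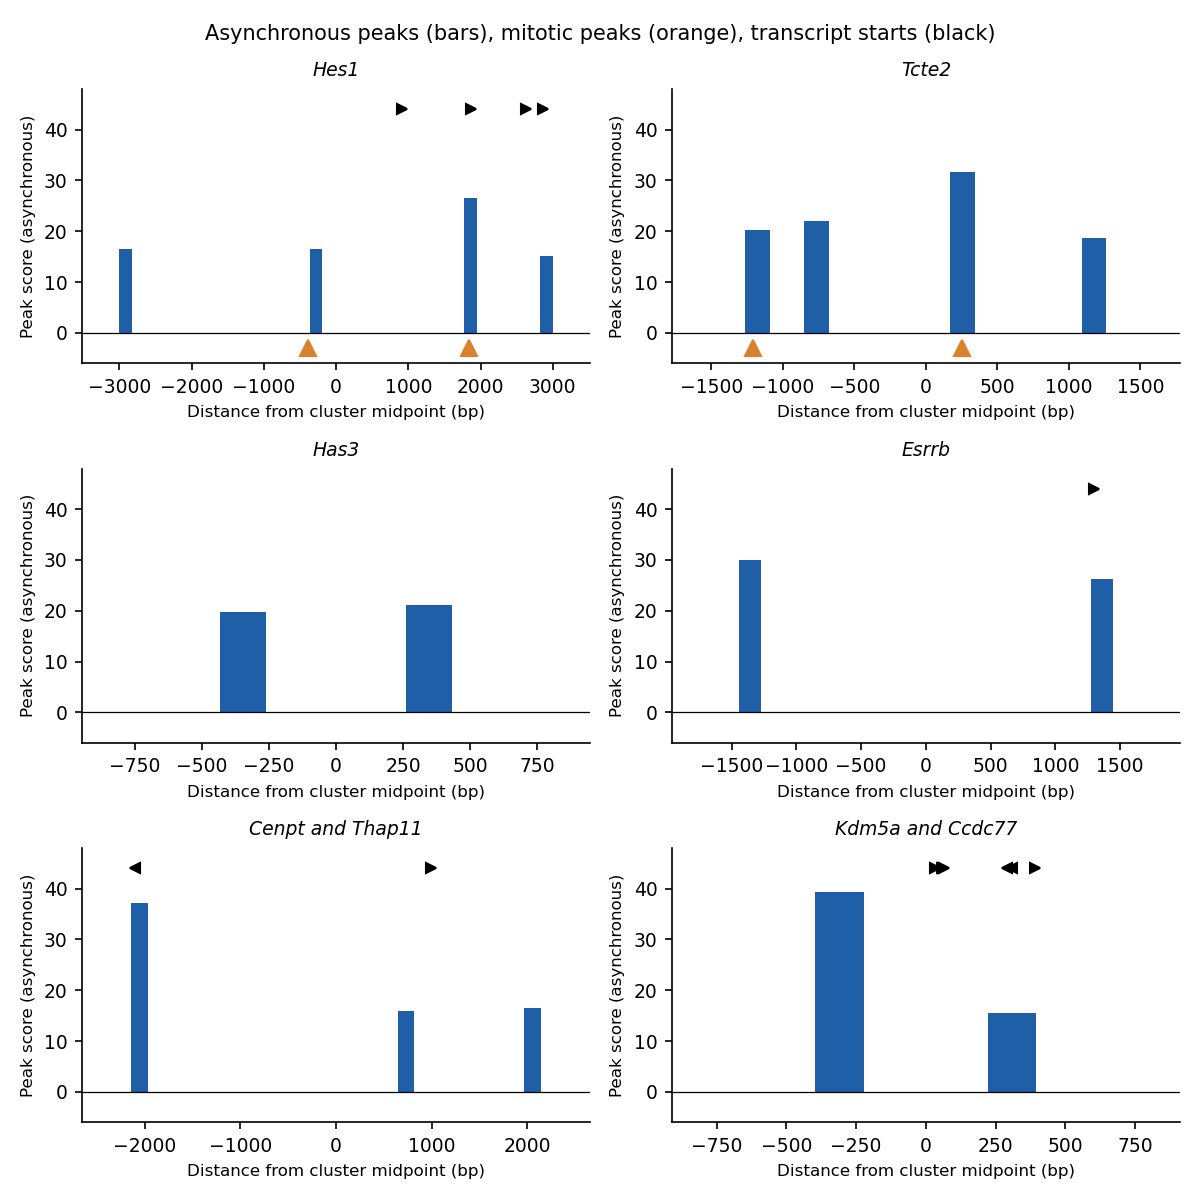
Maps of 6 clusters drawn by distance from the cluster midpoint in bp (x axis). Blue bars are asynchronous peaks, drawn to their width of 173 bp, with their score on the y axis; orange triangles mark centers of mitotic peaks without a scale for their score, and black arrowheads mark annotated transcript starts and their direction. Mitotic peaks lie over 2 of 4 members at Hes1 and at Tcte2 and over none in the other panels.

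A mitotic peak here is a called peak of the mitotic list, whose lowest score was 10.2. A member without one is not shown to have lost RBPJ in mitosis. The paper compared read enrichment between the populations instead, and counted the majority of asynchronous sites as also occupied in mitosis. A cluster holds at least 2 peaks and the sequence between them, so its share cannot be set against that of single peaks. Over all clusters, a mitotic peak lay inside 48 of 237 (20.3%, exact interval 15.3 to 25.9%), and in 6 of them 2 did. These were 54 mitotic peaks in all, of which 4 overlapped no member. Exactly 1 member overlapped a mitotic peak in 42 clusters, 2 did in 4 clusters (Hes1, Tcte2, Smo and the one near Abt1), and none did in the rest. In the 38 pairs with 1 such member, it had the higher score in 22, the lower in 12 and the same in 4. The centers of overlapping peaks were a median of 42.0 bp apart for clustered members (quartiles 16.0 and 95.0) and 43.0 bp for isolated peaks.

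By single peaks, 50 of 490 clustered members overlapped a mitotic peak (10.2%, 7.67 to 13.2%), as did 353 of 4716 isolated peaks (7.49%, 6.75 to 8.27%) and 7.74% of all asynchronous peaks. The difference was 2.72 percentage points (Newcombe interval 0.214 to 5.80). It came down to 1.85 points (-0.566 to 4.87) without the 3 clusters whose members share stretches of 20 bases, to 1.83 points (-0.583 to 4.86) without all peaks of fewer than 100 different words, and to 0.954 points (-2.06 to 5.25) when only the first peak of each cluster was counted, so its interval then included 0. Away from promoters 37 of 346 members (10.7%) and 5.94% of isolated peaks overlapped a mitotic peak, which is 4.75 points (1.79 to 8.53), whereas at promoters the shares were 9.03% and 10.8%. These 37 include all 6 overlapping members of fewer than 100 different words, and the difference away from promoters was not recomputed without them. When the list was split by score into 4 parts of equal size, 27 of 142 members and 14.4% of isolated peaks overlapped one in the part with the highest scores, and 2.30% and 4.03% in the part with the lowest. The interval of the difference included 0 in each of the 4 parts, from -1.39 to 12.1 in the highest and from -3.82 to 4.05 in the lowest.

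The CTCF motif was less frequent in clustered peaks. It occurred in 51 of 490 members (10.4%, 7.85 to 13.5%) and in 888 of 4716 isolated peaks (18.8%), beside 18.04% of all asynchronous peaks, a difference of -8.42 percentage points (-11.1 to -5.21). The share was lower among members in each of the 4 parts of the list by score, with differences from -9.82 to -7.40 points. Away from promoters 12.4% of members and 24.6% of isolated peaks held the motif (-12.1 points, -15.6 to -7.99). At promoters the shares were 5.56% and 6.33%, with an interval of the difference from -3.81 to 4.37. Without chromosome 8 it was -7.71 points. In windows of peak width 10 kb to either side of the peaks, away from other asynchronous peaks, 1.84% held the motif around members and 2.52% around isolated peaks, so both groups of peaks lay well above their surroundings.

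The RBPJ motif differed less. It occurred in 35 members (7.14%, 5.03 to 9.79%) and in 438 isolated peaks (9.29%, 8.47 to 10.2%), beside 9.09% of all asynchronous peaks. The difference of -2.14 points had an interval that included 0 (-4.29 to 0.602). The core TTCCCA occurred in 34.1% of members, 36.1% of isolated peaks and 35.9% of all. Of windows 10 kb away, 2.04% held the exact motif around members and 1.50% around isolated peaks. Within members the motif had a median distance of 28.5 bp from the center, and in isolated peaks 25.5 bp. Base composition was alike, with a median GC content of 55.5% in members and 56.1% in isolated peaks.

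**Figure D3:**
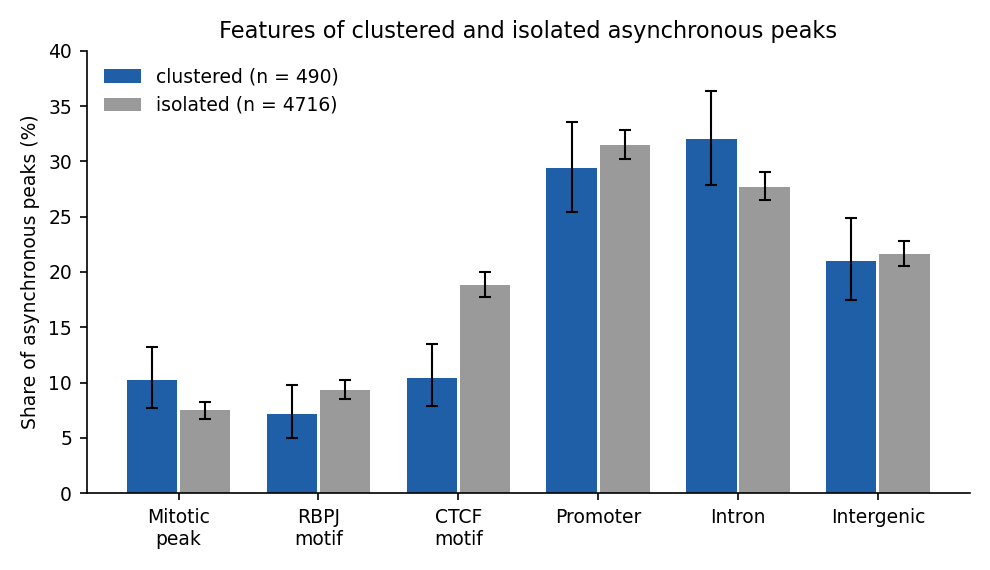
Share of clustered (blue, n = 490) and isolated (grey, n = 4716) asynchronous peaks, in percent (y axis), that overlap a mitotic peak, hold an exact RBPJ motif or a CTCF motif, or lie in a promoter, an intron or an intergenic region (x axis). Error bars are exact 95% intervals for counting error; the intervals of the 2 groups lie apart for the CTCF motif, 10.4% against 18.8%, and overlap for the rest.

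By distance to the closest neighbor, the CTCF motif occurred in 7.72% of the 259 peaks with a neighbor within 1 kb (4.78 to 11.7%) and in 13.4% of the 231 with one between 1 and 3 kb (9.30 to 18.5%). Beyond the rule it was 17.5% at 3 to 10 kb, 17.9% at 10 to 30 kb, 20.4% at 30 to 100 kb and 18.7% above 100 kb. The lowest share thus belonged to the closest peaks, although the intervals of the first and second classes overlapped. For the RBPJ motif the same classes gave 5.79, 8.66, 7.39, 9.89, 8.55 and 10.5%, and for overlap with a mitotic peak 9.65, 10.8, 7.68, 8.08, 7.06 and 7.30%. The intervals of neighboring classes overlapped throughout in both of these series.

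**Figure D4:**
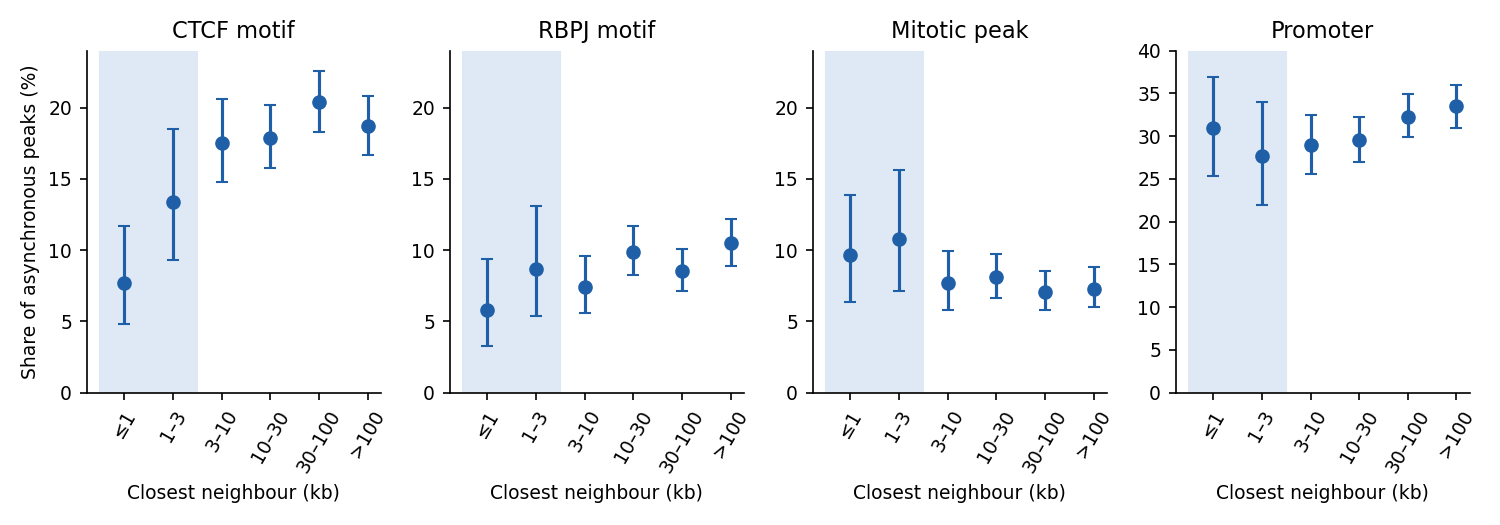
Share of asynchronous peaks in percent (y axes) with a CTCF motif, an RBPJ motif, an overlapping mitotic peak or a promoter position, by distance to the closest neighboring peak in kb (x axes). Points are shares, bars exact 95% intervals for counting error, and the shaded area holds the clustered peaks; the CTCF share is 7.72% up to 1 kb and 20.4% at 30 to 100 kb. The promoter panel has its own scale.

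Most clusters held neither motif, as did most single peaks. At least 1 of the 2 motifs occurred in 83 of 490 members (16.9%) and in 1255 of 4716 isolated peaks (26.6%). A cluster has at least 2 peaks that can hold a motif, so the shares of clusters below cannot be set against these. No member of 167 of the 237 clusters (70.5%) held an exact RBPJ or a CTCF motif, 32 had the RBPJ motif, 45 the CTCF motif, and 7 of these had both. The RBPJ motif stood in 2 members in 3 clusters, those printed above. In pairs with the RBPJ motif in 1 member, that member had the higher score in 14 of 27 and the lower in 12, and for the CTCF motif it was higher in 17 of 37 and lower in 18. Motifs were nonetheless denser in the members than in the sequence between them. Per kb there were 0.413 RBPJ motifs in members and 0.106 between them, and 0.720 and 0.142 CTCF motifs. Peaks are centered where reads pile up, and no read profile was analysed here.

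The genomic classes of clustered and isolated peaks were close. A promoter, counted from 1 kb before a transcript start to 100 bp after it, held 29.4% of members and 31.5% of isolated peaks, beside 31.3% of all asynchronous peaks (difference -2.10 points, -6.19 to 2.28). Introns held 32.0% and 27.7% (4.31 points, 0.122 to 8.75), and intergenic regions 21.0% and 21.6%. Of the clusters, 105 had a promoter member, 34 of them with all members in promoters, and 132 had none. A transcript start lay within the span of 92 clusters, and starts on both strands in 17. In 213 clusters every member was closest to the start of the same gene, which the 3 kb rule makes likely. Among the 67 pairs with 1 promoter member, the other member lay downstream of the start in 46, a median of 778 bp into the transcribed side, and upstream in 21, a median of 1575 bp away. Since the promoter reaches 1 kb upstream and only 100 bp downstream, a partner outside it starts farther away upstream, and this definition bears on both the split and the medians. The promoter member had the higher score in 37 of these pairs, the lower in 25 and an equal one in 5.

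Genes of several groups were examined for a clustered peak in the gene or within 5 kb of it, beside 231 of 22350 protein-coding genes (1.03%) and 3962 (17.7%) with any asynchronous peak. Of 54 genes of the Notch pathway, 20 had an asynchronous peak and 2 a clustered one, Hes1 and Kdm5a. Receptor, ligand and modulator genes such as Notch1, Dll1, Lfng and Dtx1 had from 1 to 3 peaks and no cluster. Of 43 pluripotency genes, 26 had a peak and 4 a clustered one: Prdm14, Tbx3, Trim28 and Esrrb. Prdm14, a regulator of pluripotency and germ cells, had members of 11.0 and 11.8, the first of them in an exon with both an RBPJ and a CTCF motif. Tbx3, a T-box factor, had 11.8 at an annotated transcript start inside the gene and 11.4 in an intron. The latter lay under a mitotic peak of 10.9. Trim28, a co-repressor of zinc-finger proteins, had 11.4 and 12.7 upstream of its start.

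Of 67 histone genes, 25 had an asynchronous peak and 9 a clustered one (13.4%), all on chromosome 13, and these came from only 3 clusters, since neighboring histone genes share them. At Hist1h1d, a linker histone gene, the scores were 10.1 and 15.2. At Hist1h4d they were 13.5 and 14.4, the second with TTCCCACA beyond the gene. At Hist1h4a and Hist1h1a they were 15.2 and 11.8, the second under a mitotic peak of 11.6. Histone genes of a kind are near copies, and only reads with a unique best position were aligned. The part of alignment in these peaks was not tested. Of 81 cytosolic ribosomal protein genes 28 had an asynchronous peak and 2 a clustered one. At Rps19 the members scored 14.8 and 12.7, the second under a mitotic peak of 10.2. Beside Rpl23a, at the start of Tlcd1, they scored 12.7 and 19.4, and there the mitotic peak, of score 12.4, lay over the first and the motif TTCCCACA in the second. Of 15 annotated host genes of small RNAs 1 had a clustered peak, Eif4a2, a translation initiation factor gene, with 10.6 and 13.1 at its starts. None of the 39 Hox genes had one, although 6 had an asynchronous peak. Counts of 0 to 4 genes in lists of this size are too few to be set apart from each other.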

How the data were processed

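From the deposited files, 2 peak lists of F9 cells were used, 1 from asynchronous and 1 from mitotic cells. The authors aligned reads uniquely to mm9 with Bowtie (version 0.12.7 in the submitters' processing notes), used HOMER to call peaks over the input of the same population, and applied a cutoff on normalized reads. The deposited score of each peak was used within its list only. What it counts is not given in the sources used here, the files give no depth per list, and the other libraries were not analysed here.

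Centers were interval middles. Asynchronous peaks were 173 bp wide and mitotic peaks 203 bp, and overlap meant at least 1 shared bp. Sequences and GENCODE transcripts came from NCBIM37, the build of mm9, and classes followed the order promoter, termination site, exon, intron, distal promoter, intergenic. Shares have Clopper-Pearson 95% intervals and differences Newcombe 95% intervals (scipy 1.17.1, statsmodels 0.14.6, pandas 2.3.3, pysam 0.24.0, matplotlib 3.10.9). Splits by score broke ties in list order. On simulated data, 300 of 300 planted clusters, 100 of 100 overlaps and 100 of 100 motifs of each kind were found.

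The members and lists were chosen with earlier results of these data known. Clusters were named for the most peaks, highest summed score, most mitotic peaks, most RBPJ motifs, listed genes and closeness to the 3 kb limit. Clusters on chromosome 18 were counted and not described singly. The Smo and Tmem125 clusters, Abr and P4ha1 were named after their values were seen. Alternatives covered the chaining distance, score minima, sex chromosomes, overlap, motifs, windows and promoter definition.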

Additional observations from a re-analysis of the deposited data

How the results depend on the processing

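Of 82 values recomputed under alternatives, 68 moved by less than 1.5 times (counts) or stayed within the interval of the reported value and 14 moved further. No difference whose interval excluded 0 changed sign. Clustered peaks numbered 403 with chaining within 2 kb, 665 within 5 kb and 1180 within 10 kb (197, 317 and 534 clusters), with median neighbor distances of 860, 1599 and 4544 bp. With asynchronous peaks at or above the median score, 201 peaks formed 96 clusters, 30.2% of them with a mitotic peak inside, and the differences were 5.98 points for mitotic overlap and -7.41 points for promoters. With mitotic peaks at or above their median score, 13.5% of clusters had one inside. With mitotic centers within 1 kb the mitotic difference was 7.23 points, where 1 mitotic peak can count for both neighbors. The CTCF difference was -4.47 points with chaining within 10 kb and -3.75 points with no mismatch, and ran from -9.00 to -3.75 over its 13 alternatives, always with an interval below 0. The interval of the mitotic difference included 0 with chaining within 5 kb (1.99 points) or 10 kb (1.28 points), with 1 peak per cluster, with mitotic peaks at or above their median score (1.52 points) and without the clusters or peaks of repeated sequence (1.85 and 1.83 points). The interval of the RBPJ difference lay below 0 with chaining within 10 kb (-2.32 points), and that of the promoter difference with asynchronous peaks at or above the median score. The promoter difference, whose interval included 0, changed sign to 1.41 points with promoters from 2 kb upstream to 500 bp downstream. Leaving out chromosome 8, the 3 clusters whose members share 20 bases or the peaks of fewer than 100 different words was chosen after seeing the data. The alternative on annotated repeats was not run because the genome used marks none.

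No paired analysis was possible because each population had 1 peak list, and leaving out a list was not possible for the same reason. The number of peaks limits the precision of every share, and variation between cultures was not measured.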

Other observations

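In the mitotic list 169 of 3227 peaks (5.24%) lay within 3 kb of another mitotic peak, beside 9.41% in the longer asynchronous list. The smallest distance in the mitotic list was 425 bp. A shorter list holds fewer close neighbors, so these shares are given side by side only and no difference in clustering is drawn from them. The 54 mitotic peaks inside asynchronous clusters had a median score of 10.9, as had the whole mitotic list.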
